A study of Mus musculus with 63 samples.

Results

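The comparison set newborn neurons against basal progenitors of the dorsal cerebral cortex at E16.5, counted in embryonic days. It set against each other 6 of the 63 libraries of the series, 3 of each cell type, taken by the cell type and age given in their labels. Of 23078 genes in the table, 15231 were tested. The series is an RNA sequencing time course of stem cells, basal progenitors and young neurons of the cortex from mouse embryos labelled as Ski knock-outs, with daily samples and 19 groups of cell type and age. All 6 libraries came from C57Bl/6 embryos with the Ski knock-out genotype and a Tbr2::GFP reporter, in which green fluorescent protein follows the gene for the transcription factor Tbr2 (Eomes). The labels name the cells of one group basal progenitors and of the other newborn neurons, both from the forebrain at E16.5, and give the sex as female. Cortices were taken apart with papain, and GFP-positive cells were collected by flow sorting. How newborn neurons were told from basal progenitors among sorted cells is not stated in the labels. Wild-type embryos form no part of the comparison, so all values describe cells labelled as Ski knock-out, and nothing here measures an effect of Ski.

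Basal progenitors, also called intermediate progenitors, arise from radial glia in the ventricular zone, move to the subventricular zone and divide, mostly once, to give pairs of glutamatergic neurons. They are known for Tbr2, for proneural factors such as Neurog2 and for the Notch ligands that they present to radial glia. Their daughters leave the cell cycle, turn off Tbr2, move along radial fibres to the cortical plate and there grow axons and dendrites. Because GFP persists after the reporter gene is shut off, Tbr2::GFP is known to label young neurons as well as progenitors. Ski is a co-repressor that binds SMAD proteins of the transforming growth factor beta (TGF-beta) pathway.

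Values are TPM, transcripts scaled to a fixed total in each library and corrected for transcript length. Differences are newborn neurons minus basal progenitors in log2(TPM + 1), given ± the standard error (SE) of the fit. On this scale the change of genes with few TPM is understated. A gene was called higher or lower when limma's Benjamini-Hochberg adjusted p over all 15231 genes was under 0.05 and the difference was at least 1 in size. The fit held all 63 libraries in 19 groups, which share an estimate of the spread for each gene. SE and p-values thus draw on the other libraries of the series too. Nothing in the labels says that the libraries came from separate embryos or litters, so the p-values measure only the spread between libraries within groups. In sorted bulk samples, fewer cells with a transcript and less of it per cell cannot be told apart. Libraries are given in the order 1, 2, 3.

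Ski transcripts were present in all 6 libraries, at 28.9, 31.7 and 28.0 TPM in basal progenitors and 42.8, 45.3 and 43.5 TPM in newborn neurons. Newborn neurons were above basal progenitors in every library, by 0.56 ± 0.16 (adjusted p = 0.0076), which is under the size needed for a call. Which stretch of the gene was deleted is not stated in the labels, so these gene-level values do not check the genotype.

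The labelled identities were set against marker genes. Eomes, whose reporter was used for sorting, stood at 432, 374 and 416 TPM in basal progenitors and 27.6, 20.1 and 47.7 TPM in newborn neurons, so every basal progenitor library was above every newborn neuron library. The neuronal tubulin gene Tubb3 stood at 1869, 2478 and 2524 TPM in basal progenitors and 3321, 3797 and 3360.5 TPM in newborn neurons. It was abundant in both groups, and its difference of 0.62 ± 0.26 (adjusted p = 0.066) was not called. Neurod6, a transcription factor of postmitotic cortical neurons, likewise reached 1075, 562 and 698 TPM in basal progenitors and 1396, 870.0 and 874 TPM in newborn neurons, groups that overlap, and its difference of 0.44 ± 0.56 (adjusted p = 0.64) was not called. Both genes were higher in newborn neurons in all 3 pairs of same-numbered libraries. With the replicate number as a block in limma on the 6 libraries, adjusted p was 0.0032 for Tubb3 and 0.0045 for Neurod6. With that block within each day over all libraries it was 0.087 and 0.66. Either way the size was under that of a call. The neural stem cell gene Hes5 was low throughout, at 4.19, 3.79 and 5.26 TPM in basal progenitors and 2.41, 3.56 and 6.30 TPM in newborn neurons, with a difference of -0.15 ± 0.45 (adjusted p = 0.87).

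Libraries of the same number resembled each other, and those numbered 1 stood apart in both groups. The 13 mitochondrial genes made up 10.6% and 10.2% of all TPM in the basal progenitor and newborn neuron libraries numbered 1, against 4.60% to 5.08% in the other 4. Ribosomal protein genes made up 5.77% and 5.31% against 7.10% to 9.64%, and the nuclear RNA Malat1 stood at 487 and 270.0 TPM against 42.4 to 73.4. Across 15023 genes with a known transcript, the difference of these libraries from the other 4 correlated with transcript length (Spearman's rho 0.43) and with GC content (-0.57), whereas the difference between the cell types did so weakly (0.07 and -0.04); these are correlations over genes, which are not replicates. Xist, the RNA of X inactivation, stood at 68.6 and 75.8 TPM in the libraries numbered 3 and between 0.0233 and 3.89 TPM in the others. The 4 Y-linked genes summed to 170 and 123 TPM in the libraries numbered 1, 43.8 and 44.7 TPM in those numbered 2 and 6.40 and 4.55 TPM in those numbered 3, although all labels give the sex as female. Neither Xist nor a Y-linked gene was called between the groups. With both libraries numbered 1 left out, 691 of the higher and 498 of the lower calls given next remained.

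Newborn neurons and basal progenitors differed in 1447 genes, with 796 higher in newborn neurons, 5.23% of those tested, and 651 lower, 4.27%. The median difference over all genes was -0.03. A difference of at least 2 was reached by 137 higher and 76 lower genes. In 760 of the higher genes all 3 newborn neuron libraries lay above all 3 basal progenitor libraries, an order found in 15.9% of all genes tested, and 623 of the lower genes showed the opposite order, found in 17% of all genes. All 796 higher and 648 of the lower genes differed in the called direction in each of the 3 same-numbered pairs. These counts of order and direction come from the values that gave the calls, so they add no support of their own. When each library was left out in turn, 544 higher and 416 lower genes stayed called in every one of the 6 fits. Calls of genes named below held in all 6 unless libraries whose absence ended them are given. With a pseudocount of 5 in place of 1, which weighs down genes of few TPM, 422 were called higher and 311 lower. With the replicate number as a block on the 6 libraries, 825 genes were called higher and 663 lower, 5.42% and 4.35%, including all 796 and 641 of those above. A fit of the 6 libraries alone without a block called 676 higher and 543 lower. Counts in the lists below stand against 5.23% higher and 4.27% lower over all genes tested.

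**Figure D1:**
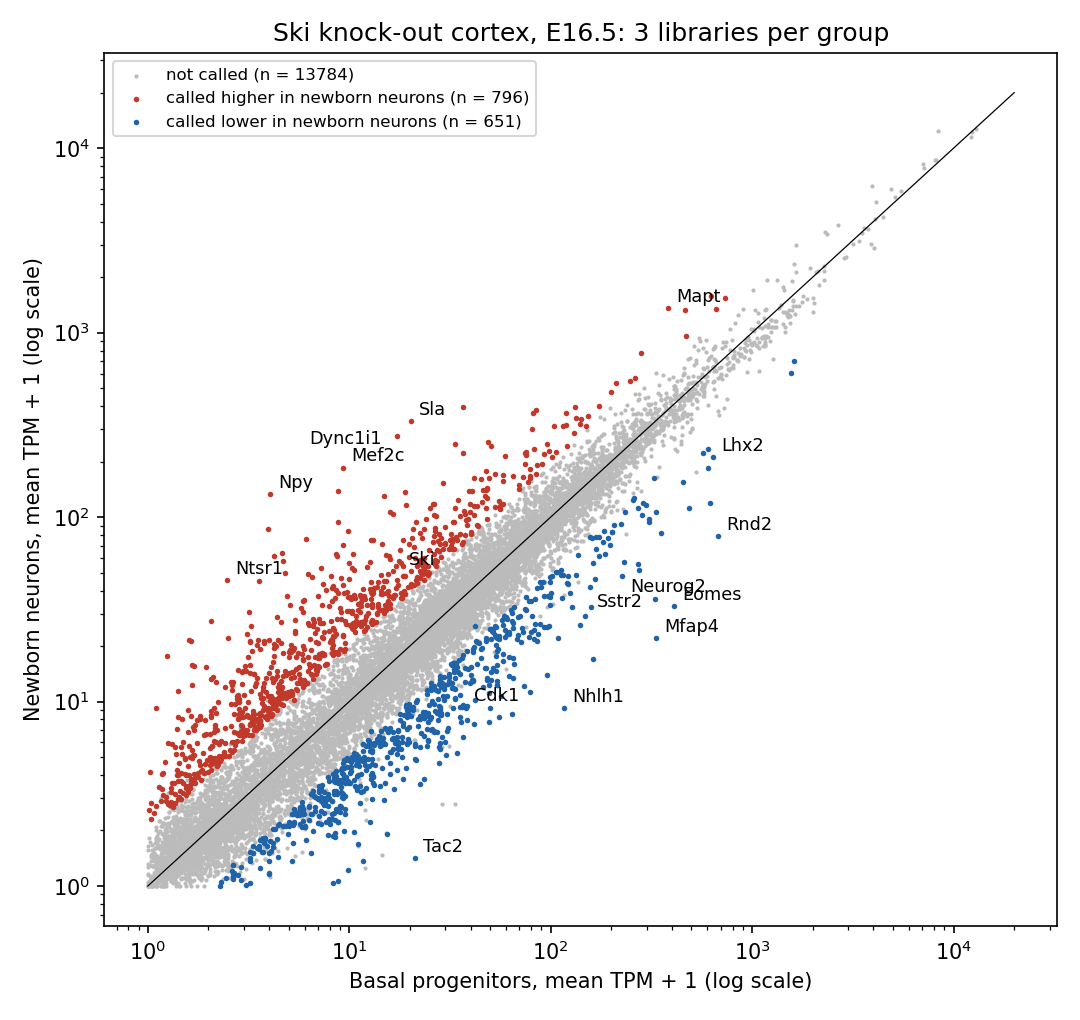
Mean TPM + 1 of each tested gene in basal progenitors (x axis) and newborn neurons (y axis), 3 libraries each, both axes on a log scale. Red and blue points are the 796 genes called higher and the 651 called lower in newborn neurons, and the line marks equal levels. Eomes, Mfap4, Nhlh1 and Tac2 lie far below the line, Npy, Mef2c and Ntsr1 far above it, and Ski stays among the genes not called.

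Genes that mark basal progenitors had the lowest median difference of all the lists. Lists were chosen with earlier results of these data known, so their order gives no independent support for the labelled identities. Of 20 basal progenitor genes, 15 were lower in newborn neurons, none was higher and the median difference was -2.06, against -0.03 over all genes. All 15 calls held without any 1 of the 6 libraries. Eomes itself had a difference of -3.72 ± 0.43 (adjusted p = 3.6e-09). The extracellular matrix gene Mfap4 stood at 286, 349.5 and 365 TPM in basal progenitors and 14.1, 15.1 and 33.9 TPM in newborn neurons, a difference of -4.03 ± 0.26 (adjusted p = 5.7e-16). Groups did not overlap for either gene, and library 3 of the newborn neurons held the most of both within its group.

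Several proneural and related factors belong to the basal progenitor list. Neurog2, the factor that starts neuronal differentiation in the dorsal cortex, stood at 220.1, 231 and 223 TPM in basal progenitors and 34.4, 39.0 and 68.0 TPM in newborn neurons, a difference of -2.29 ± 0.30 (adjusted p = 6.3e-08). Its 3 basal progenitor values lay close together, all above the 3 newborn neuron values. Neurod1, which acts after it, stood at 242, 102 and 129 TPM in basal progenitors and 33.9, 21.6 and 39.0 TPM in newborn neurons and was lower by a difference of -2.23 ± 0.32 (adjusted p = 5.3e-07). Neurod4 (-2.99 ± 0.36) and Nhlh1 (-4.01 ± 0.35), further basic helix-loop-helix factors of the cascade, were lower as well. The zinc-finger factor Insm1, which promotes the delamination of basal progenitors, stood at 282, 336 and 305 TPM in basal progenitors and 74.6, 83.9 and 130.3 TPM in newborn neurons, a smaller difference of -1.70 ± 0.20 (adjusted p = 7.6e-09). Neurog1, at 8.54, 8.77 and 8.13 TPM in basal progenitors and 1.85, 2.05 and 3.93 TPM in newborn neurons, had a difference of -1.44 ± 0.29 (adjusted p = 0.00014), which shrank to -0.84 with a pseudocount of 5.

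Other genes of the basal progenitor list carry signals or brakes on division. Sstr2, a somatostatin receptor, stood at 307, 330.1 and 349.6 TPM in basal progenitors and 21.1, 22.4 and 62.0 TPM in newborn neurons, with no overlap and a difference of -3.37 ± 0.37 (adjusted p = 1.1e-09). Tac2, which encodes neurokinin B, stood at 15.4, 28.0 and 17.3 TPM in basal progenitors and 0.712, 0.139 and 0.389 TPM in newborn neurons, a difference of -3.88 ± 0.28 (adjusted p = 9e-15), and its newborn neuron libraries were all under 1 TPM. The antiproliferative gene Btg2 (-1.88 ± 0.25) and the stress-response gene Gadd45g (-1.58 ± 0.23) were lower too. Dll3 (-0.96 ± 0.27), Tmem163 (-0.86 ± 0.32), Hes6 (-0.70 ± 0.17), Dll1 (-0.58 ± 0.17) and the nicotinic receptor gene Chrna5 (0.50 ± 0.28) were the 5 members not called, although Dll3 and Tmem163 were called without newborn neuron library 3 or basal progenitor library 1.

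The 15 largest lower differences among genes of at least 10 TPM also held genes from outside that list. Rnd2, a small GTPase that acts on the migration of young cortical neurons downstream of Neurog2, stood at 509, 699 and 829 TPM in basal progenitors and 34.7, 53.9 and 146 TPM in newborn neurons, with a difference of -3.33 ± 0.30 (adjusted p = 9.2e-12). Rnd2 had the highest level of these 15 in basal progenitors. The atypical cadherin gene Celsr1, part of the planar cell polarity pathway, stood at 100.9, 99.1 and 83.6 TPM in basal progenitors and 10.8, 10.9 and 16.9 TPM in newborn neurons, a difference of -2.81 ± 0.30 (adjusted p = 4.2e-10). Synpr, which encodes the synaptic vesicle protein synaptoporin, was lower in newborn neurons (-2.69 ± 0.46). Btbd17 (-3.0 ± 0.29), the phosphatase gene Dusp14 (-2.87 ± 0.30), the complement inhibitor gene Serping1 (-2.74 ± 0.19), the lysyl oxidase gene Loxl1 (-2.72 ± 0.39) and the laminin gene Lama5 (-2.71 ± 0.31) completed the group, together with Mfng. In all 15 genes, picked for large differences in the same values, the 3 basal progenitor libraries lay above the 3 newborn neuron libraries.

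**Figure D2:**
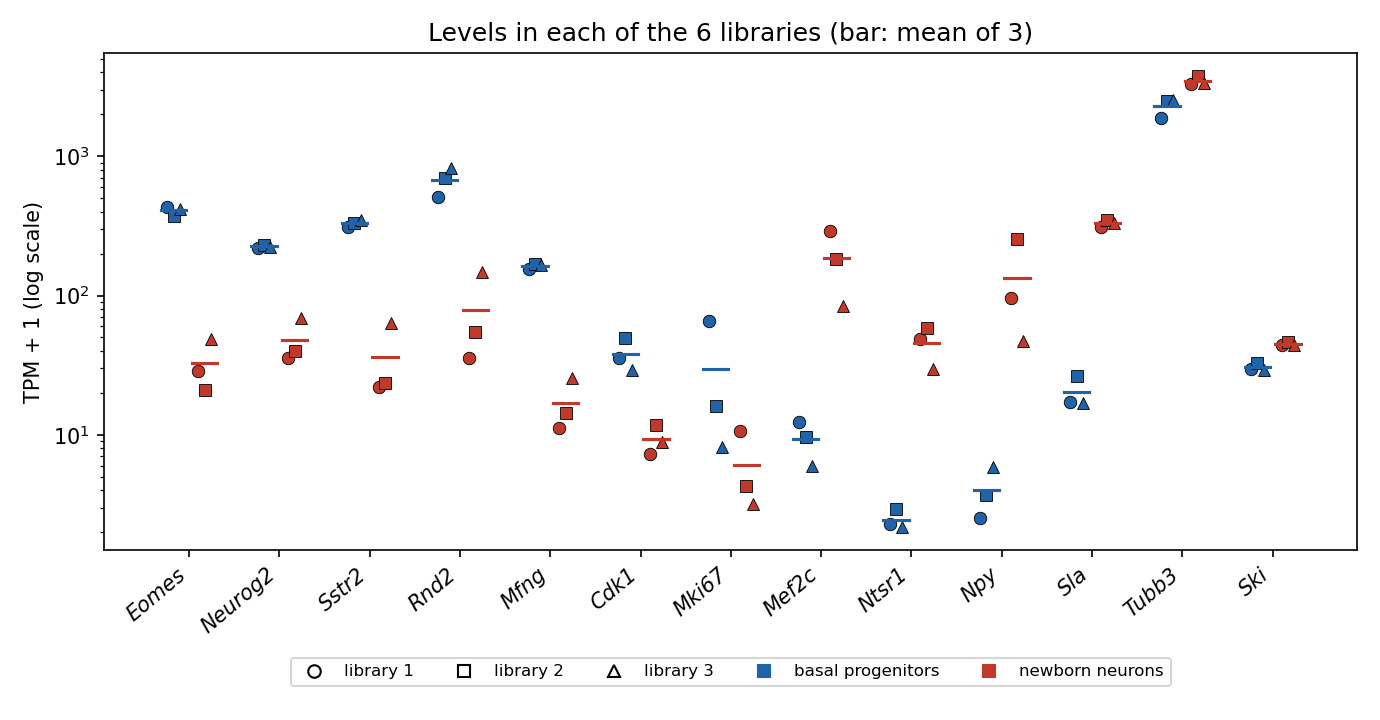
TPM + 1 on a log scale for 13 genes in each library, basal progenitors in blue and newborn neurons in red, with a symbol for each library number and a bar at the mean of 3. Eomes, Neurog2, Sstr2, Rnd2, Mfng and Cdk1 are separated downwards and Mef2c, Ntsr1, Npy and Sla upwards; Mki67 overlaps between groups, and its basal progenitor libraries spread from 7.22 to 64.4 TPM.

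Genes of the Notch pathway, through which progenitors keep their neighbours from differentiating, were divided. Of 24 tested, 6 were lower and 2 higher in newborn neurons, against 4.27% and 5.23% of all genes, with a median of -0.52. Mfng, a fringe enzyme that adds sugars to Notch receptors, stood at 153, 167 and 164 TPM in basal progenitors and 10.1, 13.3 and 24.7 TPM in newborn neurons, the largest difference of the list at -3.35 ± 0.24 (adjusted p = 6.4e-15). Its relatives Lfng (0.34 ± 0.33) and Rfng (0.26 ± 0.13) were not called. The receptor gene Notch1, at 31.6, 25.3 and 24.7 TPM in basal progenitors and 7.77, 7.86 and 9.48 TPM in newborn neurons, was lower by a difference of -1.59 ± 0.25 (adjusted p = 1.8e-06), while Notch2 and Notch3 (0.15 ± 0.25) were not called. Among targets and feedback genes, Nrarp (-1.53 ± 0.27) and Hey1 (-1.43 ± 0.25) were lower, and so were the ligand gene Dll4 (-1.21 ± 0.20, -0.59 with a pseudocount of 5) and the co-activator gene Maml3 (-1.32 ± 0.25, -0.94 without both libraries numbered 1). In the other direction, Dner, a transmembrane protein proposed as a Notch ligand, stood at 40.2, 39.8 and 53.5 TPM in basal progenitors and 98.8, 127 and 131 TPM in newborn neurons, a difference of 1.40 ± 0.39 (adjusted p = 0.0044). The ligand gene Jag2 stood stood at 8.49, 13.518 and 10.3 TPM in basal progenitors and 25.3, 27.3 and 24.3 TPM in newborn neurons, a difference of 1.2 ± 0.28 (adjusted p = 0.00073). With a pseudocount of 5, Jag2 stayed just short of the call at 0.97.

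Cell cycle genes were lower in newborn neurons without exception among those called. In the list of genes that act from G2 phase to mitosis, 24 of 26 were lower, none was higher and the median was -1.64. Their summed level was 848, 704 and 465 TPM in basal progenitors and 186, 184 and 171 TPM in newborn neurons, groups without overlap. Cdk1, the kinase that drives entry into mitosis, stood at 34.6, 48.4 and 28.1 TPM in basal progenitors and 6.23, 10.8 and 7.82 TPM in newborn neurons, a difference of -2.03 ± 0.31 (adjusted p = 1.1e-06). Its partner cyclin gene Ccnb1 (-2.0 ± 0.30), the kinase gene Aurkb (-1.98 ± 0.28) and the anaphase activator gene Cdc20 (-1.95 ± 0.27) fell by similar amounts. Cenpf (-1.24 ± 0.52, adjusted p = 0.073) and Hmmr (-0.85 ± 0.41, adjusted p = 0.12) were not called, although both were called without basal progenitor library 3, and Cenpf with the replicate block on the 6 libraries (adjusted p = 0.015), but not with the block nested in day (adjusted p = 0.061).

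Within the mitotic list, the libraries numbered 1 held the most of several transcripts in both groups. The proliferation marker Mki67 stood at 64.4, 15.1 and 7.22 TPM in basal progenitors and 9.68, 3.31 and 2.19 TPM in newborn neurons, so that the highest newborn neuron library exceeded the lowest basal progenitor library. Its difference of -1.96 ± 0.58 (adjusted p = 0.0081) became -1.13 without basal progenitor library 1 (adjusted p = 0.16), -1.60 without newborn neuron library 3 (adjusted p = 0.061) and -1.63 without both libraries numbered 1 (adjusted p = 0.065). With those 2 libraries left out, 18 mitotic genes were called lower. In a limma fit of the 6 libraries alone, Mki67 had an adjusted p of 0.17 at the same difference of -1.96. The topoisomerase gene Top2a, at 89.2, 44.7 and 24.6 TPM in basal progenitors and 13.8, 11.4 and 8.52 TPM in newborn neurons, and the kinesin gene Kif23, at 18.5, 8.58 and 6.07 TPM in basal progenitors and 3.35, 1.99 and 1.88 TPM in newborn neurons, had differences of -1.97 ± 0.43 (adjusted p = 0.00034) and -1.72 ± 0.36 (adjusted p = 0.00021). Those 2 calls held in each fit without 1 library, as did 17 of the 24. Whether the makeup of the libraries numbered 1 set these values was not tested.

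Promoters of mitotic genes share short sequence elements, and because their transcripts fell together, 4 are printed here. The cell cycle genes homology region (CHR) was searched as TTTGAA or TTCGAA, and the CCAAT box as CCAAT, each on both strands and counted also where matches overlapped, in 300 bases running from 250 before to 50 after each RefSeq transcription start (build GRCm38.p6). The printed strand is that of the gene, 5′ to 3′, and capitals mark CHR and CCAAT letters or their reverse complements.
Cdk1 (chr10:69352863-69353162, minus strand): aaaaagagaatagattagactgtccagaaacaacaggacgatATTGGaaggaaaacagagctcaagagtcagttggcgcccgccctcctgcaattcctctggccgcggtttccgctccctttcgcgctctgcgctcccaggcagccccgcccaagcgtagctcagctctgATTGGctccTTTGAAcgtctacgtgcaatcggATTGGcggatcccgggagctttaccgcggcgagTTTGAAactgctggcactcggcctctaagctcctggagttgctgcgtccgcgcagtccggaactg
Ccnb2 (chr9:70421505-70421804, minus strand): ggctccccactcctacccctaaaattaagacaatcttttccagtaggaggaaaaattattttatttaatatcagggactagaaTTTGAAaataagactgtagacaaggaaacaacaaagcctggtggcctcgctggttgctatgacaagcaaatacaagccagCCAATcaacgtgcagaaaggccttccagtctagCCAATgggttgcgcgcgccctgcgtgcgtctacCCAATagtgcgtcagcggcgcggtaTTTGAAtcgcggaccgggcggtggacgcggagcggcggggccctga
Cdc20 (chr4:118437294-118437593, minus strand): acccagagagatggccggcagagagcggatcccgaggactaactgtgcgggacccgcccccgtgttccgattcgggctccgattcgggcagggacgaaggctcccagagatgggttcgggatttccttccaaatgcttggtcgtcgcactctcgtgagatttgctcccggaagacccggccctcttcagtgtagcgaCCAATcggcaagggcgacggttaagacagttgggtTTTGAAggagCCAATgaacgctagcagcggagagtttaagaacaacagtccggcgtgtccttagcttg
Top2a (chr11:99024140-99024439, minus strand): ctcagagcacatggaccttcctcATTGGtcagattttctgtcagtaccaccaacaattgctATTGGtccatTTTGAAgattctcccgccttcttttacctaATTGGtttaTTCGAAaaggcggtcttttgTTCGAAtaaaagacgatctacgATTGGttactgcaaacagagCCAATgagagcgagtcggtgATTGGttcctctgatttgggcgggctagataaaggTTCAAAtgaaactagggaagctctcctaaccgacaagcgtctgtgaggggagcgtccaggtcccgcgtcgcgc
Of the 22 mitotic genes with a promoter in the table, 18 held the CHR letters (81.8%) and 18 the CCAAT letters (81.8%). Among 10875 tested genes with a promoter these shares were 16.2% and 42.9%, and over all 27025 genes with such a promoter entry the shares were 21.7% and 41.1%. Of the genes called lower, 480 had a promoter, of which 25% held the CHR and 52.7% the CCAAT letters, against 15.54% and 38.8% of 560 genes called higher. The CCAAT letters were not particular to mitotic genes, since 11 of 16 basal progenitor genes held them (68.8%), while 1 of 16 held the CHR letters (6.25%). The E-box CAGATG was found in 1 of 16 basal progenitor genes (6.25%), against 14.1% of tested genes, and the E-box CAGCTG in 6 of 16 (37.5%) against 18.3%. Among genes called higher and lower, CAGATG was found in 18.4% and 19.2%, and CAGCTG in 23.0% and 19.8%. A match says only that the letters are present.

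Genes of S phase differed less. Of 26 tested, 10 were lower and none higher, with a median of -0.74. Mcm2, a subunit of the replicative helicase, stood at 50.4, 68.2 and 52.4 TPM in basal progenitors and 12.4, 18.0 and 20.8 TPM in newborn neurons, a difference of -1.70 ± 0.22 (adjusted p = 4.2e-08), with all basal progenitor libraries on top. Uhrf1, which keeps DNA methylation through replication, was lower (-1.52 ± 0.27), as was Rrm2, a subunit of ribonucleotide reductase (-1.22 ± 0.24). Pcna, the sliding clamp of the polymerase, stood at 114.5, 124 and 109 TPM in basal progenitors and 76.0, 81.5 and 80.5 TPM in newborn neurons, without overlap, yet its difference of -0.54 ± 0.20 (adjusted p = 0.039) fell short of the size for a call.

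Regulators of the decision to divide followed the same direction. In the list of 20 genes for cyclin-dependent kinases, their inhibitors and E2F factors, 8 were lower, none was higher and the median was -0.83. Cdk6 stood at 24.6, 9.64 and 7.49 TPM in basal progenitors and 2.59, 1.65 and 1.57 TPM in newborn neurons, a difference of -2.19 ± 0.41 (adjusted p = 4.8e-05). The gene for its partner cyclin Ccnd2 stood stood at 156, 97.3 and 117 TPM in basal progenitors and 40.3, 27.9 and 45.4 TPM in newborn neurons, a difference of -1.68 ± 0.28 (adjusted p = 7.8e-06). Cdkn2c, which encodes the inhibitor p18, was lower as well (-2.01 ± 0.28). Of the inhibitors known from cell cycle exit, Cdkn1b stood at 235, 155.2 and 164 TPM in basal progenitors and 119.5, 94.7 and 103 TPM in newborn neurons (-0.78 ± 0.16) and Cdkn1c at 58.0, 107 and 126 TPM in basal progenitors and 96.8, 134 and 132 TPM in newborn neurons (0.37 ± 0.30), and neither was called.

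Genes of radial glia, the parent cells, were mostly not called. Of 22, 6 were lower and 1 was higher, against 4.27% and 5.23% of all genes, and the median was -0.15. Lhx2, a factor of cortical identity, stood at 684, 545 and 679 TPM in basal progenitors and 235, 203 and 195 TPM in newborn neurons, a difference of -1.58 ± 0.23 (adjusted p = 4e-07). Pax6, which specifies dorsal progenitors and declines as Eomes comes on, stood at 91.5, 50.3 and 69.2 TPM in basal progenitors and 17.2, 13.1 and 29.8 TPM in newborn neurons, a difference of -1.80 ± 0.31 (adjusted p = 1e-05), and Emx2 (-1.89 ± 0.22) and Prom1 (-1.53 ± 0.22) were also lower. Sox2 (-1.14 ± 0.28) and Vim (-1.0 ± 0.24) lay near the size limit. Sox2 came to -0.93 without basal progenitor library 1, and Vim to -0.94, -0.95 and -0.91 without newborn neuron library 1, newborn neuron library 2 and basal progenitor library 2. Ptprz1, a receptor phosphatase of radial glia, was the exception, at 88.3, 38.7 and 28.7 TPM in basal progenitors and 279.8, 134 and 94.2 TPM in newborn neurons. In each pair it was over 3 times as high in newborn neurons, a difference of 1.70 ± 0.33 (adjusted p = 8e-05), with an adjusted p of 0.079 in a fit of the 6 libraries alone. The glial genes Slc1a3 (0.38 ± 0.28), Nes and Aldoc were not called.

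Among genes higher in newborn neurons, the largest differences belonged to signalling and neuronal genes. Npy, which encodes neuropeptide Y, stood at 1.54, 2.71 and 4.84 TPM in basal progenitors and 95.5, 256 and 46.5 TPM in newborn neurons, the largest difference among genes of at least 10 TPM, at 4.79 ± 0.56 (adjusted p = 4.1e-09). The newborn neuron libraries varied over 5-fold between themselves, but all exceeded the basal progenitors. Mef2c, an activity-regulated factor of postmitotic neurons, stood at 11.3, 8.67 and 5.02 TPM in basal progenitors and 288, 182 and 83.4 TPM in newborn neurons, a difference of 4.20 ± 0.52 (adjusted p = 1.8e-08). Sla, a signalling adaptor, was steadier, at 16.2, 25.4 and 15.9 TPM in basal progenitors and 311, 348 and 333 TPM in newborn neurons, a difference of 4.07 ± 0.46 (adjusted p = 2.1e-09). Gucy1a3, a subunit of the nitric oxide receptor guanylate cyclase, stood at 3.47, 2.45 and 2.98 TPM in basal progenitors and 123, 89.6 and 43.3 TPM in newborn neurons, with a difference of 4.33 ± 0.43 (adjusted p = 6.5e-11).

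Several of the 15 are known from deep cortical layers or from transport. Ntsr1, a neurotensin receptor used as a mark of layer 6 corticothalamic neurons, stood at 1.28, 1.94 and 1.17 TPM in basal progenitors and 47.5, 57.6 and 28.9 TPM in newborn neurons, a difference of 4.17 ± 0.40 (adjusted p = 2.9e-11). The heparan sulfate enzyme genes Hs3st4 (3.84 ± 0.40) and Hs3st2 (3.67 ± 0.35) were higher too. Dync1i1, the neuronal intermediate chain of the dynein motor, stood at 15.4, 19.6 and 13.9 TPM in basal progenitors and 272, 345 and 210.3 TPM in newborn neurons, a difference of 3.98 ± 0.43 (adjusted p = 5.1e-10). Sybu, which links kinesin to cargo that moves down axons, was likewise higher (3.94 ± 0.41), as was Nin, a microtubule anchoring protein (3.55 ± 0.38). The adhesion genes Lrfn5 (3.72 ± 0.47) and Kirrel3 (3.65 ± 0.34), the melanocortin receptor gene Mc4r (3.77 ± 0.36), the secreted factor gene Ccbe1 (3.70 ± 0.39) and the kainate receptor gene Grik3 (3.60 ± 0.45) made up the remainder. In all 15 genes, picked for large differences in the same values, the groups did not overlap, and the calls held without any 1 library.

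Transcription factors of neuronal differentiation were divided. Of 22, 3 were higher and 3 lower, against 5.23% and 4.27% of all genes, with a median of 0.37. The deep-layer factor Sox5 was higher, at 74.2, 30.5 and 36.1 TPM in basal progenitors and 206, 119 and 95 TPM in newborn neurons, a difference of 1.59 ± 0.37 (adjusted p = 0.00075). Myt1, a zinc-finger factor of early neurogenesis, went the other way, at 123, 69.3 and 98.1 TPM in basal progenitors and 25.4, 17.4 and 31.0 TPM in newborn neurons, a difference of -1.93 ± 0.25 (adjusted p = 2.9e-08). Zbtb20, a zinc-finger repressor, was also lower, at 149, 41.4 and 27.3 TPM in basal progenitors and 17.9, 8.0 and 7.64 TPM in newborn neurons, a difference of -2.31 ± 0.52 (adjusted p = 0.00052) that had an adjusted p of 0.059 in a fit of the 6 libraries alone. St18 was called lower too (-1.55 ± 0.46), but not without basal progenitor library 1 (-1.07, adjusted p = 0.10). Most of the list was high in both groups and not called, among them Neurod2 (0.37 ± 0.45), Tbr1 (0.48 ± 0.40), Bcl11b (0.73 ± 0.43) and Fezf2 (0.92 ± 0.38).

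Markers of deep-layer neurons (layers 5 and 6) were called mostly in the higher direction. Of 18, 8 were higher in newborn neurons and 1 was lower, with a median of 0.91, and the 8 held without any 1 library. Ldb2 stood at 6.53, 9.50 and 7.26 TPM in basal progenitors and 94.3, 87.1 and 98.0 TPM in newborn neurons, a difference of 3.44 ± 0.39 (adjusted p = 2.2e-09). Tle4, a co-repressor of corticothalamic neurons, stood at 24.6, 13.8 and 18.2 TPM in basal progenitors and 94.6, 75.9 and 41.9 TPM in newborn neurons, a difference of 1.81 ± 0.27 (adjusted p = 8e-07), and Nfe2l3 (2.51 ± 0.34), Nxph3 (2.0 ± 0.38) and Lmo3 (1.78 ± 0.28) were higher as well. Pcp4, a calmodulin-binding protein, was lower, at 82.1, 138 and 136 TPM in basal progenitors and 26.9, 44.0 and 58.3 TPM in newborn neurons, a difference of -1.47 ± 0.47 (adjusted p = 0.014). That call was lost without newborn neuron library 1 (-1.18, adjusted p = 0.10), basal progenitor library 2 (-1.34, adjusted p = 0.056) or basal progenitor library 3 (-1.36, adjusted p = 0.053).

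Upper-layer markers moved in both directions. Of 19, 7 were higher and 3 lower, with a median of -0.09. The adaptor gene Dok5 stood at 39.6, 55.2 and 37.4 TPM in basal progenitors and 159, 196 and 122 TPM in newborn neurons, a difference of 1.82 ± 0.25 (adjusted p = 1.4e-07). The growth factor gene Ptn stood at 153, 124.8 and 146 TPM in basal progenitors and 347, 319 and 356 TPM in newborn neurons, a difference of 1.27 ± 0.25 (adjusted p = 7.5e-05). Rorb, a layer 4 factor, was higher at lower levels, 2.78, 1.34 and 1.43 TPM in basal progenitors and 14.8, 7.37 and 5.90 TPM in newborn neurons, with a difference of 1.80 ± 0.34 (adjusted p = 5.4e-05). The 3 lower genes, Rnd2, Unc5d and Lhx2, also belong to migration or progenitor lists. Unc5d, a netrin receptor gene found in cells of the subventricular zone, stood at 141, 50.8 and 43.5 TPM in basal progenitors and 13.6, 6.21 and 11.0 TPM in newborn neurons, a difference of -2.67 ± 0.44 (adjusted p = 5.7e-06). Cux1 (0.39 ± 0.13) and Cux2, classical upper-layer factors, were not called.

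**Figure D3:**
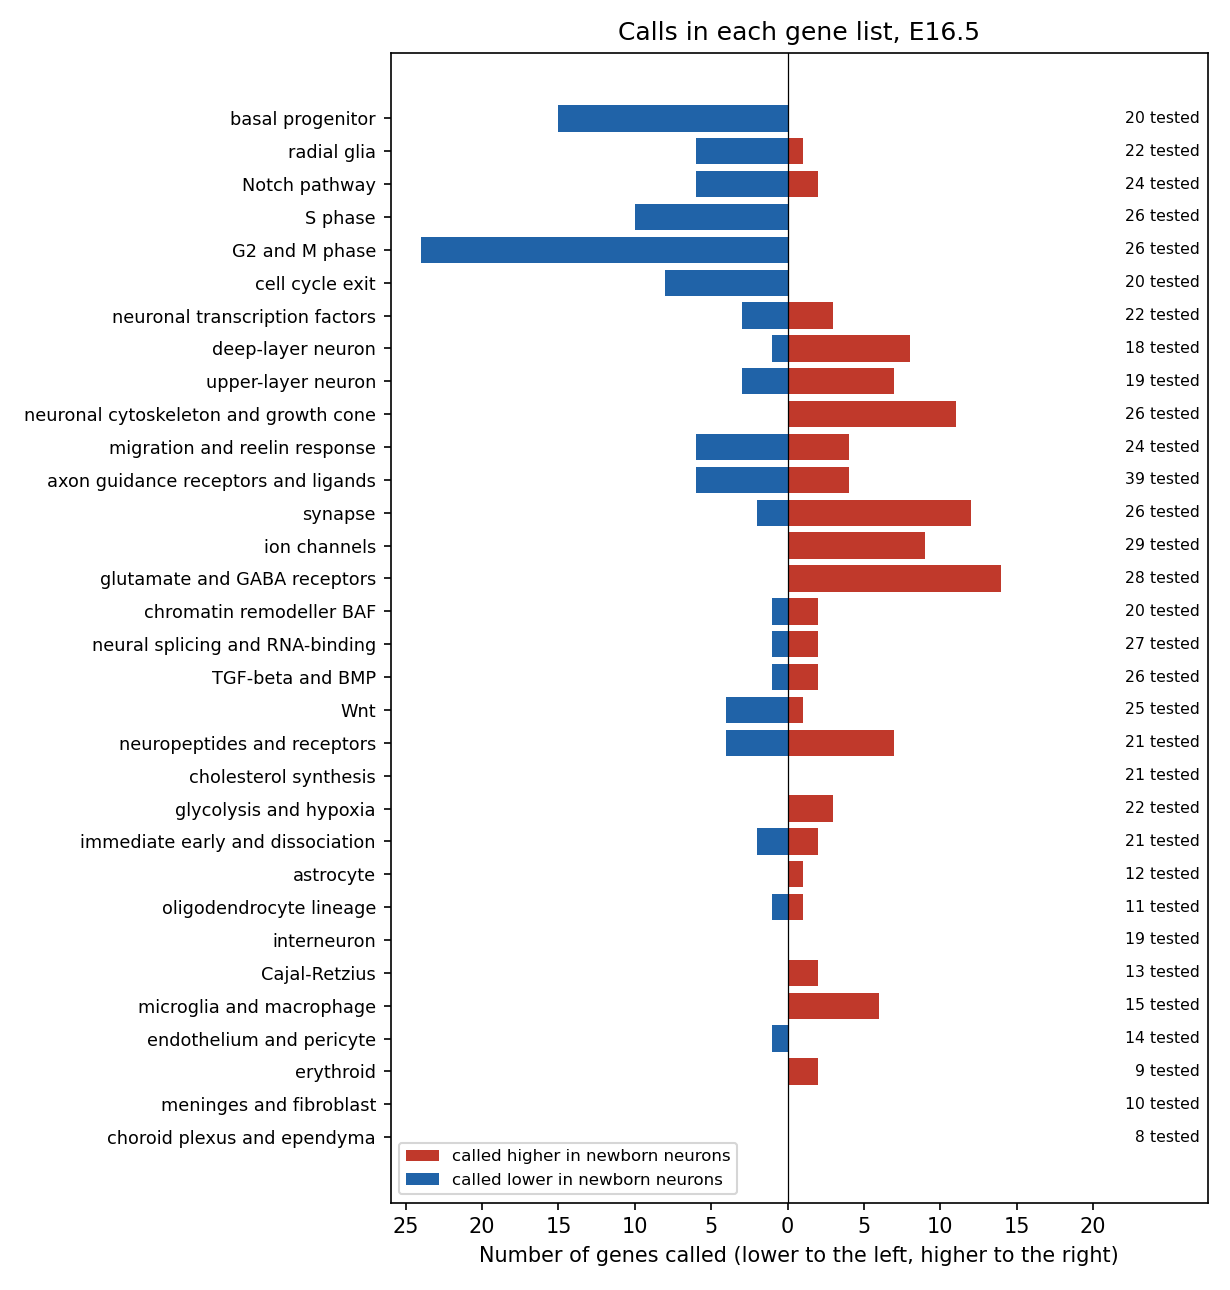
Number of genes called in each list, lower in newborn neurons to the left and higher to the right, with the number tested at the right edge. Basal progenitor and cell cycle lists lie to the left, with 24 of 26 G2 and M phase genes; cytoskeleton, synapse, channel and receptor lists lie to the right, with 14 of 28 receptor genes.

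Genes of the neuronal cytoskeleton were higher in part. Of 26 genes, 11 were higher and none lower, with a median of 0.74, and 7 were called without both libraries numbered 1. Neurofilament genes showed the largest differences. Nefl stood at 1.98, 1.76 and 7.98 TPM in basal progenitors and 41.2, 39.2 and 28.6 TPM in newborn neurons, a difference of 3.14 ± 0.58 (adjusted p = 3.2e-05). Nefm stood at 13.8, 7.19 and 14.6 TPM in basal progenitors and 100.3, 70.8 and 50.8 TPM in newborn neurons, a difference of 2.55 ± 0.44 (adjusted p = 9.9e-06). Mapt, which encodes the axonal microtubule protein tau, stood at 377, 404 and 362 TPM in basal progenitors and 1483, 1474 and 1106 TPM in newborn neurons, a difference of 1.82 ± 0.45 (adjusted p = 0.0014). The tubulin-binding genes Stmn2 (1.51 ± 0.38) and Stmn4 (1.46 ± 0.27) and the kinase gene Dclk1 (1.22 ± 0.25) were higher as well. The growth cone gene Gap43 was called (1.13 ± 0.34, adjusted p = 0.0082), but had an adjusted p of 0.060 without both libraries numbered 1. Dcx and Map2 (0.60 ± 0.33), microtubule proteins of young and maturing neurons, were not called.

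Genes of radial migration and of the response to reelin, the glycoprotein that guides neurons to their layer, changed in both directions. Of 24, 4 were higher and 6 lower, against 5.23% and 4.27% of all genes, with a median of 0.23. Dab1, the adaptor that passes on the reelin signal, stood at 46.3, 28.1 and 22.5 TPM in basal progenitors and 347, 211 and 188 TPM in newborn neurons, a difference of 2.91 ± 0.28 (adjusted p = 2.8e-11). Of its receptors, Vldlr was higher, at 18.7, 9.74 and 10.4 TPM in basal progenitors and 58.4, 39.8 and 31.7 TPM in newborn neurons, a difference of 1.68 ± 0.31 (adjusted p = 3.3e-05), whereas Lrp8 was lower without reaching a call, at 427, 211 and 200.3 TPM in basal progenitors and 177, 115.5 and 121 TPM in newborn neurons, a difference of -0.95 ± 0.26 (adjusted p = 0.0038). Lrp8 was called without newborn neuron library 1 (-1.14), basal progenitor library 2 (-1.11) or basal progenitor library 3 (-1.14). Cxcr4, the chemokine receptor of migrating progenitors, stood at 50.9, 66.3 and 51.6 TPM in basal progenitors and 19.6, 32.1 and 28.0 TPM in newborn neurons, a difference of -1.07 ± 0.22 (adjusted p = 0.00019) that came to -0.88 without newborn neuron library 1 and -0.95 without basal progenitor library 2. Without both libraries numbered 1, 4 genes were called higher and 3 lower, and without newborn neuron library 1 alone 2 were called higher.

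Axon guidance genes were mostly not called. Of 39, 4 were higher and 6 lower, against 5.23% and 4.27% of all genes, with a median of 0.05. Without both libraries numbered 1 the counts were 2 and 4. Epha4, an ephrin receptor, stood at 246, 129 and 119 TPM in basal progenitors and 58.2, 40.4 and 36.3 TPM in newborn neurons, a difference of -1.80 ± 0.27 (adjusted p = 1.1e-06), without overlap. Sema3c, a secreted semaphorin, stood at 238, 100.8 and 79.9 TPM in basal progenitors and 32.7, 20.4 and 22.3 TPM in newborn neurons, a difference of -2.29 ± 0.44 (adjusted p = 6.2e-05), and Sema6d was lower too (-1.83 ± 0.39). Going up, the Slit receptor Robo1 stood at 56.8, 44.6 and 41.0 TPM in basal progenitors and 171, 121 and 128 TPM in newborn neurons, a difference of 1.54 ± 0.36 (adjusted p = 0.0007). The ephrin receptor Ephb1 stood at 25.7, 26.3 and 28.4 TPM in basal progenitors and 79.1, 95.3 and 66.8 TPM in newborn neurons, a difference of 1.54 ± 0.28 (adjusted p = 3.4e-05). Robo2 (0.44 ± 0.35), Plxna4 (0.58 ± 0.42) and the contactin gene Cntn2 were not called.

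Genes of the synapse were more often called higher than lower. Of 26, 12 were higher and 2 lower, with a median of 0.90, and 7 of the 12 held without any 1 library. Syt1, the calcium sensor of vesicle release, stood at 21.3, 20.7 and 19.7 TPM in basal progenitors and 114, 98.4 and 66.6 TPM in newborn neurons, a difference of 2.09 ± 0.44 (adjusted p = 0.0002). Camk2b, a kinase subunit of the postsynaptic density, stood at 92.3, 79.1 and 71.2 TPM in basal progenitors and 405, 446 and 240.3 TPM in newborn neurons, a difference of 2.11 ± 0.47 (adjusted p = 0.00039). The scaffold genes Shank1 (1.75 ± 0.36) and Dlg2 (1.66 ± 0.36) and the synaptotagmin gene Syt4 (1.89 ± 0.49) were higher as well. The 2 lower genes were Slc17a6, the vesicular glutamate transporter VGLUT2, at 123, 49.3 and 58.8 TPM in basal progenitors and 23.9, 17.3 and 22.5 TPM in newborn neurons, a difference of -1.71 ± 0.36 (adjusted p = 0.00023), and Syn2, a synapsin, with -1.23 ± 0.29 (adjusted p = 0.00096). Slc17a7, the other vesicular glutamate transporter, was not called (0.78 ± 0.43).

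Ion channel genes showed 9 of 29 higher and none lower, with a median of 0.49. Kcnq5, a potassium channel of the M-current family, stood at 2.50, 1.19 and 1.76 TPM in basal progenitors and 18.7, 13.499 and 9.14 TPM in newborn neurons, a difference of 2.37 ± 0.29 (adjusted p = 1.4e-08). The sodium channel gene Scn2a1, at 7.33, 3.08 and 2.74 TPM in basal progenitors and 36.0, 19.4 and 11.9 TPM in newborn neurons, had a difference of 2.09 ± 0.41 (adjusted p = 0.0001), and the calcium channel gene Cacna1e, at 9.45, 5.85 and 5.42 TPM in basal progenitors and 49.1, 30.0 and 17.2 TPM in newborn neurons, one of 1.98 ± 0.44 (adjusted p = 0.00042). In all 3 genes the basal progenitors lay below the newborn neurons without overlap. The related sodium channel genes Scn1a, Scn3a and Scn8a were not called.

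Of 28 genes for glutamate and GABA receptors, 14 were higher and none lower, with a median of 0.99, and 10 of the 14 held without any 1 library. Among NMDA receptor subunits, Grin2b stood at 11.8, 5.75 and 3.90 TPM in basal progenitors and 76.1, 41.0 and 24.3 TPM in newborn neurons, a difference of 2.53 ± 0.48 (adjusted p = 5.5e-05). The obligatory subunit Grin1 stood at 8.10, 12.8 and 10.5 TPM in basal progenitors and 31.4, 46.8 and 30.1 TPM in newborn neurons, a difference of 1.69 ± 0.34 (adjusted p = 0.00012). Grin2a, a subunit of more mature synapses, stayed under 1 TPM in every library (0.938, 0.548 and 0.219 TPM in newborn neurons). The metabotropic receptor gene Grm5 stood at 1.16, 1.43 and 1.89 TPM in basal progenitors and 26.6, 23.2 and 13.6 TPM in newborn neurons, a difference of 3.11 ± 0.45 (adjusted p = 3.9e-07). For GABA, the subunit genes Gabrb2 (2.38 ± 0.52), Gabra3 (1.96 ± 0.29) and Gabra5 (1.90 ± 0.39) were higher, whereas Gabra2 was not called. The AMPA subunit genes Gria1 (0.88 ± 0.37), Gria2, Gria3 (0.56 ± 0.45) and Gria4 (0.92 ± 0.40) were not called, although Gria4 passed without newborn neuron library 3 or basal progenitor library 1. Gria2 differed more between libraries of different number than between cell types, at 257, 54.8 and 42.2 TPM in basal progenitors and 298, 91.3 and 76.8 TPM in newborn neurons.

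Peptides and their receptors were divided, with 7 of 21 higher, 4 lower and a median of 0.38. Next to Npy and Ntsr1, the natriuretic peptide receptor gene Npr3 stood at 0.549, 0.301 and 0.0910 TPM in basal progenitors and 7.66, 5.45 and 1.57 TPM in newborn neurons, a difference of 2.01 ± 0.30 (adjusted p = 7.8e-07) that came to 0.85 with a pseudocount of 5. Next to Tac2 and Sstr2, the neurexophilin gene Nxph4 was lower, at 60.3, 83.6 and 119 TPM in basal progenitors and 16.2, 20.7 and 39.3 TPM in newborn neurons, a difference of -1.79 ± 0.36 (adjusted p = 0.00012). Its relative Nxph3, named above among deep-layer genes, went up.

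Subunits of the BAF chromatin remodelling complex are known to be exchanged when neural progenitors become neurons. Of 20, 2 were higher and 1 lower, with a median of -0.11, against 5.23% higher and 4.27% lower over all genes. Dpf1 (BAF45b), a neuronal subunit, stood at 86.0, 123 and 133 TPM in basal progenitors and 281, 328 and 326 TPM in newborn neurons, a difference of 1.46 ± 0.24 (adjusted p = 4.2e-06). The ATPase gene Smarca2 stood at 189.7, 112 and 117 TPM in basal progenitors and 386, 289 and 281 TPM in newborn neurons, a difference of 1.21 ± 0.24 (adjusted p = 0.00011). Actl6a (BAF53a), the progenitor subunit, stood at 78.1, 94.3 and 91.2 TPM in basal progenitors and 38.1, 40.1 and 51.6 TPM in newborn neurons, without overlap, and its difference of -1.01 ± 0.14 (adjusted p = 1.8e-07) lay at the size limit. It was between -0.93 and -0.98 without newborn neuron library 1 or 2 or basal progenitor library 2 or 3. Its neuronal counterpart Actl6b (BAF53b) stood at 164, 236 and 225 TPM in basal progenitors and 308, 398 and 383 TPM in newborn neurons and was not called (0.81 ± 0.36, adjusted p = 0.095), nor was the ATPase gene Smarca4 (-0.10 ± 0.11).

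Of 27 genes for splicing and RNA-binding proteins, 2 were higher and 1 lower, with a median of 0.02. Such counts lay near the shares over all genes, 5.23% higher and 4.27% lower. The count of lower genes became 4 without newborn neuron library 1, 3 without basal progenitor library 2 and 4 without basal progenitor library 3. Ptbp1, a repressor of neuronal exons in progenitors, stood at 146, 181 and 172 TPM in basal progenitors and 56.8, 65.4 and 77.3 TPM in newborn neurons, a difference of -1.32 ± 0.17 (adjusted p = 5.7e-08), with all 3 basal progenitor libraries on top. Its neural relative Ptbp2, at 295, 146 and 183 TPM in basal progenitors and 247, 158 and 182 TPM in newborn neurons, was not called. Khdrbs2 was higher (1.34 ± 0.26, adjusted p = 5.3e-05), and Rbfox1 was called higher (1.45 ± 0.41, adjusted p = 0.0053) but not without newborn neuron library 1 (adjusted p = 0.060) or basal progenitor library 3 (adjusted p = 0.061).

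In the TGF-beta and bone morphogenetic protein (BMP) pathway, to which Ski belongs, 2 of 26 genes were higher and 1 was lower, with a median of -0.06. These counts lay near the shares over all genes, 5.23% higher and 4.27% lower. The signal transducer Smad3 stood at 3.95, 3.92 and 5.07 TPM in basal progenitors and 17.6, 23.3 and 14.8 TPM in newborn neurons, a difference of 1.86 ± 0.20 (adjusted p = 5.5e-10). The BMP receptor gene Bmpr1b stood at 6.03, 3.32 and 2.13 TPM in basal progenitors and 18.0, 12.1 and 11.0 TPM in newborn neurons, a difference of 1.66 ± 0.36 (adjusted p = 0.00029). The ligand gene Tgfb2 was lower, at 13.4, 7.5 and 8.0 TPM in basal progenitors and 2.66, 2.69 and 2.04 TPM in newborn neurons, a difference of -1.58 ± 0.32 (adjusted p = 0.00011), which came to -0.95 with a pseudocount of 5. The related transducers Smad2 (-0.09 ± 0.11) and Smad4 (-0.21 ± 0.12) and Skil, the closest relative of Ski, were not called. The BMP target gene Id2 stood at 433, 560.5 and 554 TPM in basal progenitors and 823, 871 and 846 TPM in newborn neurons, without overlap, and with a difference of 0.72 ± 0.19 (adjusted p = 0.0026) it too fell short of the size for a call.

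In the Wnt pathway, which keeps progenitors dividing, calls were mostly lower, with 4 of 25 lower (7 without newborn neuron library 3), 1 higher and a median of -0.60. Over all genes, 4.27% were called lower and 5.23% higher. The receptor gene Fzd2 stood at 54.7, 67.7 and 71.3 TPM in basal progenitors and 10.2, 11.9 and 23.0 TPM in newborn neurons, a difference of -2.10 ± 0.20 (adjusted p = 5.4e-11). The ligand gene Wnt5a stood at 19, 13.0 and 19.6 TPM in basal progenitors and 3.03, 3.48 and 5.60 TPM in newborn neurons, a difference of -1.87 ± 0.25 (adjusted p = 7.3e-08). Lef1, a nuclear effector, was lower (-1.37 ± 0.22, adjusted p = 2.9e-06, -0.87 with a pseudocount of 5), and Fzd1 lay at the size limit (-1.02 ± 0.19, -0.96 without newborn neuron library 1). Wnt7a was the higher gene, at 2.92, 4.33 and 3.71 TPM in basal progenitors and 9.31, 14.1 and 9.55 TPM in newborn neurons, a difference of 1.35 ± 0.21 (adjusted p = 1.6e-06), 0.88 with a pseudocount of 5. Ctnnb1, which encodes beta-catenin, stood at 1181, 1308 and 1316 TPM in basal progenitors and 585, 686 and 891 TPM in newborn neurons, without overlap, and its difference of -0.84 ± 0.12 (adjusted p = 7.8e-07) was under the size for a call.

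Metabolic lists were called in the higher direction or not at all. None of 21 cholesterol synthesis genes was called, although the median was 0.33 and all 3 newborn neuron libraries lay above all basal progenitor libraries for 10 of them, an order found in 15.9% of all genes. Hmgcs1, an early enzyme of the pathway, stood at 229, 131 and 165.2 TPM in basal progenitors and 479.8, 320.0 and 247 TPM in newborn neurons, a difference of 0.97 ± 0.20 (adjusted p = 0.00018), and passed the size limit without newborn neuron library 2 (1.01), newborn neuron library 3 (1.2) or basal progenitor library 1 (1.19). In the glycolysis list, 3 of 22 were higher and none was lower, against 5.23% and 4.27% of all genes, and the median was 0.01. Pfkp, a phosphofructokinase gene, stood at 12.9, 10.8 and 7.85 TPM in basal progenitors and 50.1, 32.2 and 18.9 TPM in newborn neurons, a difference of 1.52 ± 0.37 (adjusted p = 0.0012), while Hk1 (1.02 ± 0.19) and the neuronal enolase gene Eno2 (1.15 ± 0.25) were called less firmly. They came to 0.88 and 0.96 without newborn neuron library 2 and to 0.88 and 0.89 without basal progenitor library 1.

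Markers of other cells were present in all 6 libraries, at levels that varied with the cell type, the library number or single libraries. Microglia and macrophage genes were higher in newborn neurons for 6 of 15, against 5.23% of all genes, with none lower and a median of 1.14. Their summed level was 7.44, 19.6 and 33.9 TPM in basal progenitors and 21.8, 71.5 and 159.9 TPM in newborn neurons, higher in newborn neurons within each pair but overlapping between groups. C1qa, a complement gene of microglia, stood at 0, 1.90 and 3.22 TPM in basal progenitors and 1.40, 6.35 and 18.2 TPM in newborn neurons, a difference of 1.60 ± 0.59 (adjusted p = 0.035). It was not called without newborn neuron library 3 (0.87, adjusted p = 0.34), newborn neuron library 2 (1.56, adjusted p = 0.089) or basal progenitor library 1 (adjusted p = 0.25). The count of 6 became 13 without newborn neuron library 1, 3 without newborn neuron library 2, 1 without newborn neuron library 3 and 2 without basal progenitor library 1, and 1 of the 6 genes stayed called without any 1 library. With the replicate block on the 6 libraries, 10 were called higher, and with the block nested in day over all libraries 6. Aif1 was listed at 0 in basal progenitor libraries 1 and 3.

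Globin and other erythroid genes summed to 119, 207 and 2744 TPM in basal progenitors and 363, 1649 and 3022 TPM in newborn neurons, again higher in newborn neurons within each pair. Of 9 tested, 2 were called higher, the embryonic globin genes Hbb-y (3.21 ± 1.07, adjusted p = 0.02) and Hba-x (2.52 ± 0.97, adjusted p = 0.047), and neither call held without newborn neuron library 3 (adjusted p = 0.10 and 0.22), newborn neuron library 2 (0.12 and 0.17), basal progenitor library 1 (0.053 and 0.092) or basal progenitor library 2 (0.052 and 0.10). Hba-x was also lost without basal progenitor library 3 (adjusted p = 0.075). With the replicate block on the 6 libraries 6 were called, but with the block nested in day 1, since Hba-x was lost (adjusted p = 0.063). Endothelial and pericyte genes summed to 23.8, 174 and 38.5 TPM and 32.5, 30.2 and 49.8 TPM, so that basal progenitor library 2 stood apart. Pecam1 reached 29.0 TPM there and 1.24 to 2.85 TPM in the other 5. Of 14 genes, 1 was called lower, against 4.27% of all genes. This count was 5 without basal progenitor library 1, 3 without basal progenitor library 3 and 3 without both libraries numbered 1, but 0 without any other single library. The gene, Ly6c1 (-1.61 ± 0.62, adjusted p = 0.049), stood at 0, 22.9 and 0.395 TPM in basal progenitors and 0, 0.184 and 0 TPM in newborn neurons and was at -0.16 without that library (adjusted p = 0.89). The call was also lost without any 1 newborn neuron library and with the replicate block on the 6 libraries (adjusted p = 0.14). The part of microglial, blood or endothelial RNA in other differences was not tested.

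Genes of interneurons, which enter the cortex from ventral sources, were not called in any of 19 cases, with a median of 0.59. For this list and those that follow, the shares over all genes were 5.23% higher and 4.27% lower. Dlx1 stood at 2.26, 1.2 and 5.28 TPM in basal progenitors and 4.8, 10.2 and 12.7 TPM in newborn neurons, higher in newborn neurons within each pair, a difference of 1.43 ± 0.60 (adjusted p = 0.07). With the replicate block on the 6 libraries Dlx1, Dlx2, Gad1 and Sst were called higher, but none of them was with the block nested in day (adjusted p from 0.072 for Dlx1 to 0.18 for Gad1). Without basal progenitor library 3, 3 genes of the list were called higher, and without newborn neuron library 1, 1. Their summed list level was 60.8, 120.3 and 155.1 TPM in basal progenitors and 54.7, 143 and 163 TPM in newborn neurons. Cajal-Retzius genes summed to 438, 338 and 365 TPM and 391, 479 and 523 TPM, and 2 of 13 were higher, Spock1 (2.16 ± 0.50, adjusted p = 0.00072) and Ndnf (1.85 ± 0.33, adjusted p = 1.7e-05), with the defining genes Reln (0.64 ± 0.42) and Trp73 not called. Among 12 astrocyte genes Sparcl1 alone was called higher (1.15 ± 0.33, 0.89 and 0.92 without basal progenitor libraries 1 and 3), and the mature astrocyte gene Aqp4 stayed under 1 TPM everywhere. Of 11 oligodendrocyte lineage genes, Olig1 was called higher (1.19 ± 0.42) and Bcan lower (-1.17 ± 0.38), and neither held without newborn neuron library 2 (adjusted p = 0.15 and 0.051) or basal progenitor library 2 (0.11 and 0.057). Olig1 was lost without newborn neuron library 3 or basal progenitor library 1 as well (adjusted p = 0.074 and 0.15). No gene of the meningeal (10 tested) or choroid plexus (8 tested) lists was called, although 1 choroid plexus gene was with the block nested in day, and both lists overlapped between groups in summed level.

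**Figure D4:**
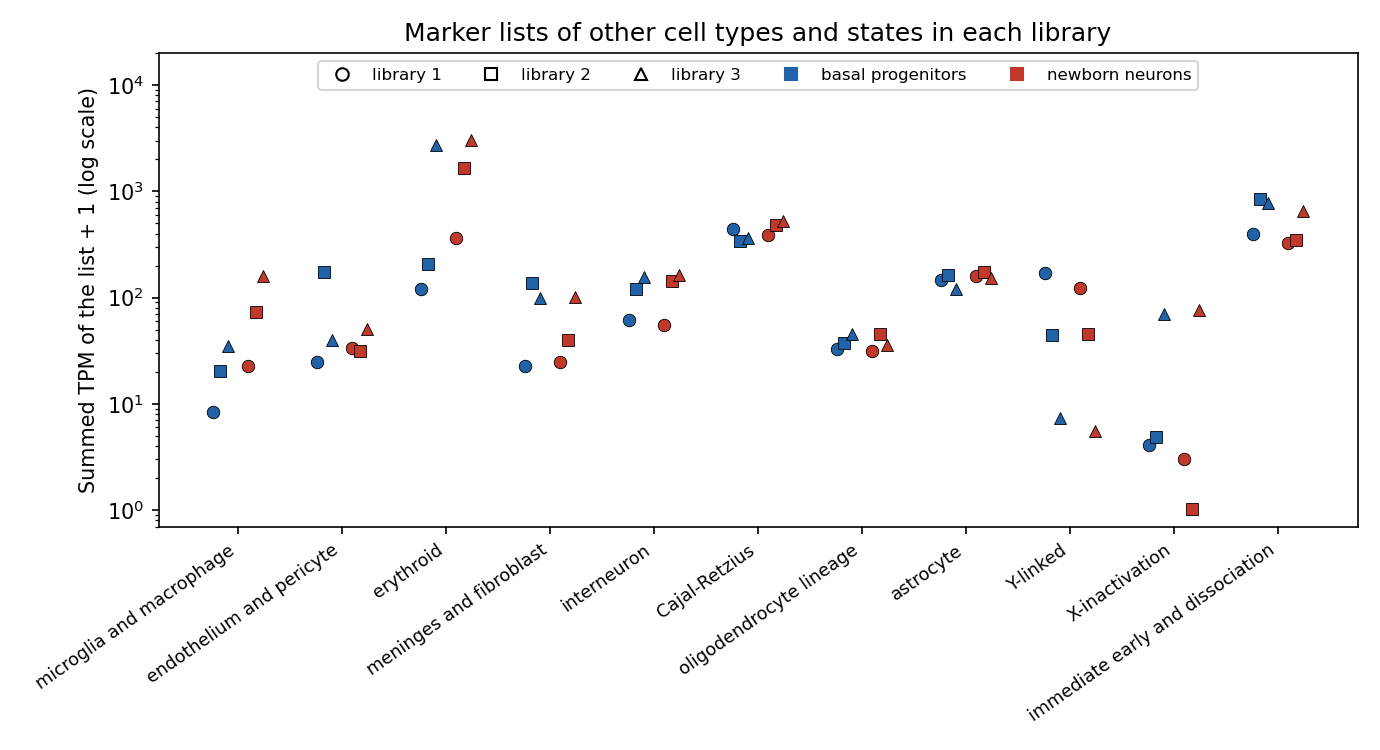
Summed TPM + 1 of marker lists of other cell types and states, on a log scale, in each library (basal progenitors blue, newborn neurons red, a symbol for each library number). Microglial and erythroid sums are higher in newborn neurons within each pair, the endothelial sum of 174 TPM singles out basal progenitor library 2, and the Y-linked and Xist values follow the library number, not the cell type.

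Immediate early and stress genes, which respond to tissue dissociation, were called in both directions. Of 21, 2 were higher and 2 lower, against 5.23% and 4.27% of all genes, with a median of -0.44. The count of lower genes became 5 without basal progenitor library 1 and 1 without newborn neuron library 1. Fosl2 stood at 7.5, 11.9 and 8.64 TPM in basal progenitors and 30.0, 32.3 and 24.9 TPM in newborn neurons, a difference of 1.55 ± 0.35 (adjusted p = 0.00052). Klf6 stood at 9.2, 11.7 and 8.03 TPM in basal progenitors and 32.0, 22.6 and 19.4 TPM in newborn neurons, a difference of 1.25 ± 0.25 (adjusted p = 8.6e-05). Ier2 was lower (-1.12 ± 0.31, adjusted p = 0.0048, -0.88 without basal progenitor library 3 and -0.94 without newborn neuron library 1), as was Btg2, named above. Fos stood at 10.5, 49.2 and 101.4 TPM in basal progenitors and 6.58, 12.4 and 66.8 TPM in newborn neurons and varied more between library numbers than between cell types. Its difference of -1.04 ± 0.80 (adjusted p = 0.39) was called with the replicate block on the 6 libraries (adjusted p = 0.017), but not with the block nested in day (adjusted p = 0.25). The heat shock gene Hspa1a reached 80.5 TPM in basal progenitor library 2 and stayed at 2.92 TPM or less in the other 5.

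None of the most abundant transcripts was called between the cell types. The mitochondrial gene mt-Co3 had the highest mean in both, with 12919 ± 910.0 TPM in basal progenitors and 12630.0 ± 492 TPM in newborn neurons (mean ± SD, n = 3 each). The alpha-tubulin gene Tuba1a stood at 8326 ± 1557 TPM in basal progenitors and 12334 ± 1433 TPM in newborn neurons (mean ± SD, n = 3 each), and the elongation factor gene Eef1a1 at 12288 ± 1694 TPM in basal progenitors and 12257 ± 1112 TPM in newborn neurons (mean ± SD, n = 3 each). None of the 12 genes that make up the top 10 of either group was called.

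Whether a difference was particular to E16.5 was tested against the mean of the same difference at E15.5, E17.5 and E18.5 in the same model. No gene was called in either direction by limma, and 120 genes (0.788%) had an unadjusted p under 0.05. With the replicate number as a block within each day, none was called and 168 genes (1.10%) had an unadjusted p under 0.05. With library weights from limma, 4 genes were called, all with a difference at E16.5 below that of the other days, namely Mmp9 (-1.51), Cobl (-1.25), Rasgrf2 (-1.33) and Fam183b (-1.46), and 1878 genes (12.3%) had an unadjusted p under 0.05. Without weights these 4 stood at -0.55, -0.95, -1.22 and -0.80, each with an adjusted p of 1.0. Of the genes called at E16.5, 785 higher and 641 lower ones had the same sign on all 4 days. The sign at E16.5 was set by the call itself. The share of all tested genes with the same sign on all 4 days was not computed, so these counts have no background beside them. A p that misses the threshold does not show that the days were alike.

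The course over the days differed in size for single genes. The difference of Eomes was -2.80, -3.72, -4.86 and -5.47 at E15.5, E16.5, E17.5 and E18.5, and that of Neurog2 was -1.58, -2.29, -3.04 and -3.08. Mef2c held values of 4.37, 4.20, 4.65 and 4.93, and Npy of 4.29, 4.79, 4.53 and 3.66. Hs3st4 went through 4.67, 3.84, 2.94 and 2.21. None of these 5 genes passed the test of E16.5 against the other days. Because that test set E16.5 against a mean of earlier and later days, it can miss a steady rise or fall. Trends over the days were not tested.

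**Figure D5:**
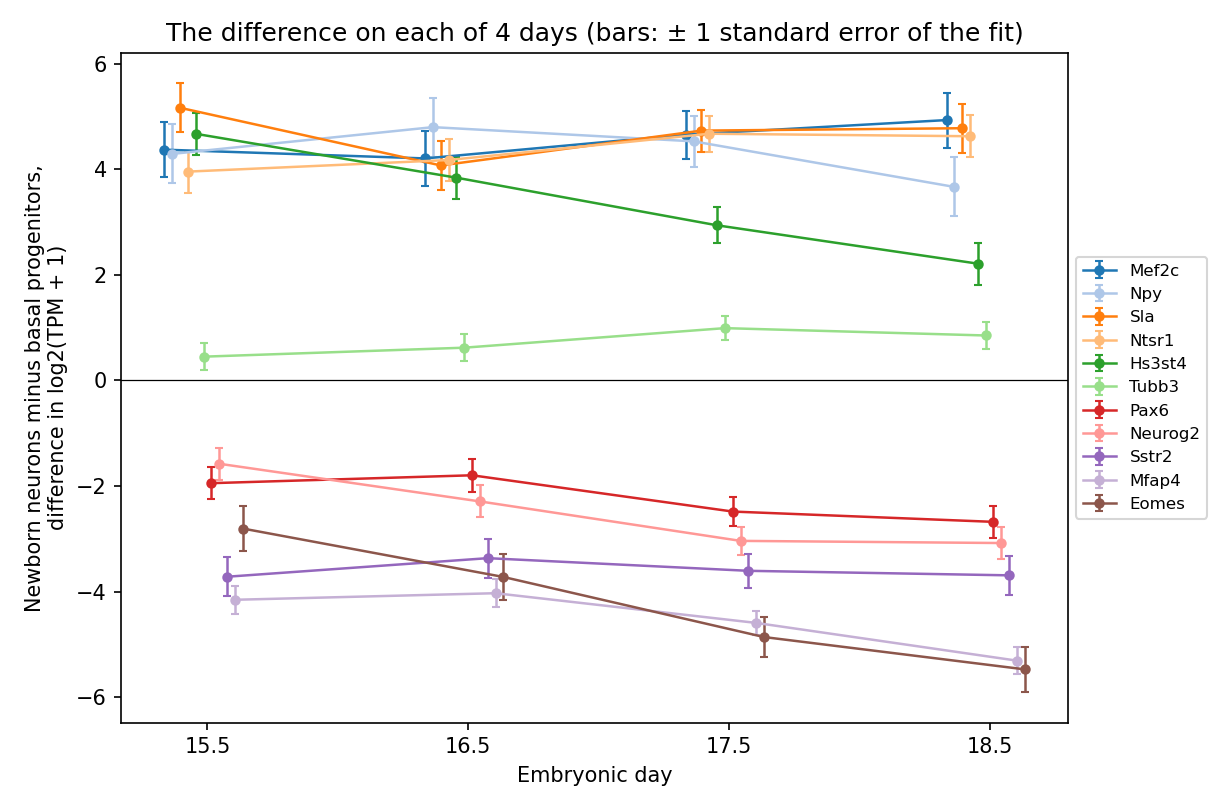
Difference between newborn neurons and basal progenitors in log2(TPM + 1) on each of 4 embryonic days for 11 genes, with bars of 1 standard error of the fit. Signs are the same on all 4 days, with Eomes from -2.80 to -5.47 and Hs3st4 from 4.67 to 2.21.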

How the data were processed

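Libraries were single-end RNA sequencing libraries of sorted cells, made with the TruSeq RNA v2 kit per the labels' protocols. The deposited table holds TPM per gene, in which the authors estimated transcript levels with kallisto 0.43.0 against GRCm38.p2 (mm10), per the submitters' processing notes; it pairs gene IDs with symbols. Counts are not part of the values used here, so depth is unknown and no counting error can be given; 17160 to 18454 genes were above 0 TPM in each of the 6 libraries. Groups follow the labels.

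A gene was tested if 3 or more of the 63 libraries reached 1 TPM. A limma 3.58.1 model (R 4.3.3) with a variance trend was fitted on log2(TPM + 1) over 19 groups of cell type and age, which share one estimate of the spread, and p-values were adjusted over 15231 genes by the Benjamini-Hochberg method. The model was tested on simulated data in which each library varied on its own. Deviations shared by same-numbered libraries were not simulated, so that test does not bear on them. The day contrast came from the same fit. Genes were named by rule: from called genes of 10 TPM or more on average in a group, the 15 of greatest difference each way; a fixed set of markers; the 10 most abundant; and members of lists. The members and lists were chosen with earlier results of these data known.

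Same-numbered libraries deviated together: the deviations from the group means correlated across genes at 0.83, 0.48 and 0.65 for numbers 1, 2 and 3, and at most at 0.33 between unlike numbers. The pairing comes from this check, since the labels do not say what a number shares. Promoters were read from RefSeq. The main result was set against 21 other settings. Some genes of the lists are not reported here by name.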

Additional observations from a re-analysis of the deposited data

How the results depend on the processing

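In TPM without counts the noise of low genes is unknown, and with 3 libraries a group single libraries weigh heavily. Of 21 other settings, which varied the pseudocount, the filter, the scaling, the libraries in the fit, weights and covariates, a pseudocount of 5 moved the counts by over 1.5 times, to 422 higher and 311 lower. Leaving out each library in turn gave 708 to 889 higher and 594 to 748 lower, and 0 genes in the contrast of days in either direction. The replicate block gave 825 higher and 663 lower on the 6 libraries and 798 and 664 when nested in day over all libraries. List counts that either block moved by over 1.5 times are given beside the lists. Library weights called 4 genes below the other days. Leaving out both libraries numbered 1 (715 higher, 539 lower) or both numbered 3 (841 and 806) was chosen after seeing the data. Genes that were not called changed sign: Hes5 ranged from -0.45 to 0.10 when each library was left out and came to 0.075 without both libraries numbered 1, Xist ranged from -2.67 to 0.47 (0.45 without newborn neuron library 2, 0.47 without basal progenitor library 3), and the Y-linked gene Ddx3y ranged from -1.47 to 0.59 (0.51 without basal progenitor library 1) and came to 0.99 with library weights; the cause was not tested.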
